A study of Caenorhabditis elegans with 2 samples.

Results

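The genes described here are 43 genes that build and drive the mitotic apparatus of Caenorhabditis elegans, taken from a list of names and all 43 found among the 19973 nuclear protein-coding genes of the WBcel235 annotation. They fall into 13 kinetochore and checkpoint genes, 10 centrosome genes, 13 spindle, midzone and chromosomal passenger genes, and 7 genes of the anaphase-promoting complex (APC) together with the mitotic kinase gene cdk-1. The rule that chose the members uses their function and no measured value, though earlier results of these data were known when it was written. For each gene the strongest region bound by AMA-1, the largest subunit of RNA polymerase II, was sought within 500 bp of the annotated 5′ end, within 500 bp of the annotated 3′ end, and in the body between these windows.

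AMA-1 was mapped by chromatin immunoprecipitation and sequencing in whole young adult worms of mixed sex, in 2 biological replicates of 1 group with no second condition. Both samples came from strain YL489, in which the unc-119(ed3) mutation is rescued by a transgene, vrIs104, that also expresses AMA-1 fused to GFP and FLAG under the pie-1 promoter, a germline promoter, with the puf-5 3′ UTR. The genotype names no mutation of the native ama-1 gene, and the sources do not say if the antibody recognised the fused tag or the polymerase subunit, so signal from germline and from somatic tissue cannot be told apart. The deposited data were lists of regions: 887 optimal peaks past the authors' reproducibility threshold, 30000 candidate regions of the pooled reads, 28020 of replicate 1 and 30000 of replicate 2. An optimal peak need not overlap a region of both replicates. Those at spd-2 and klp-19 overlapped none of replicate 1. Candidate lists hold background regions as well as peaks, so a rank, with 1 for the highest signal value of a list, says more than presence in it.

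At mitosis the kinetochore joins chromosomes to spindle microtubules, and the spindle assembly checkpoint delays anaphase until every chromosome is attached. Centrosomes, built from a centriole pair and the pericentriolar material around it, form the spindle poles, while kinesins and microtubule-binding proteins shape the spindle and its midzone. The APC, activated by the CDC20 homolog FZY-1, marks securin and cyclin B for destruction and so starts anaphase and the exit from mitosis. In the adult worm, dividing cells are found in the germ line, and oocytes store the products of these genes for the embryo.

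The sequences under 5 of the stronger regions at members are given first, since the summits described below fall on these bases. They were taken from members with an optimal peak, mdf-1 and sas-5, and the optimal peaks of spd-2, mdf-2, klp-18 and klp-19 are not shown. Regions of klp-7, hcp-3 and spd-5 that rank ahead of that of sas-5 are not shown either, so the 5 are not the strongest 5. Each run holds the 61 bases centred on the summit of the pooled region, read from the RefSeq WBcel235 genome on the strand of the gene and written 5′ to 3′, with the summit base in capitals. The runs at the 5′ ends of mdf-1, sas-5 and cls-2, all outside coding sequence, lie at chrV:9544298-9544358, chrV:11610633-11610693 and chrIII:9054702-9054762. The run at emb-30 lies in its coding sequence at chrIII:9441390-9441450, and the run past the 3′ end of zyg-9 at chrII:8464527-8464587.
mdf-1: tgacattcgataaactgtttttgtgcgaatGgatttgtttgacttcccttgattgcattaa
sas-5: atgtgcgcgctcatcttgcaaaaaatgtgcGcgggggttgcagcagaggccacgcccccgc
cls-2: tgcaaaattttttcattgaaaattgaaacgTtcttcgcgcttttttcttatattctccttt
emb-30: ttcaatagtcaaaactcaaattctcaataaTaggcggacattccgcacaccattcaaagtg
zyg-9: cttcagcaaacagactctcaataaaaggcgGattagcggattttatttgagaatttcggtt
The 5 runs have no common base composition. G and C make up 63.9% of the run at sas-5, 27.9% at cls-2, 34.4% at mdf-1 and 37.7% at both emb-30 and zyg-9. In a wider window around each summit the median was 36.9% at the 90 best pooled sites of members and 35.9% at all 29971 nuclear pooled summits.

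Most of these genes had a candidate region in the pooled list, far more often than the average gene did. Many of these regions were weak. With the strongest 15000 pooled regions alone, 24 members had a summit at the 5′ end, 14 in the body and 24 at the 3′ end. The same count over all genes was not made. Best sites ranked beyond 15000 had a −log10 q-value of at most 1.06. The −log10 q-value of the best sites was as low as 0.327, at the 3′ end of zen-4, where the list maximum was 3.90. Optimal peaks were at few members, though also at a higher share than over all genes. In the pooled list 31 of 43 members (72.1%) had a summit at the 5′ end, where 29.0% of all nuclear protein-coding genes had one. In the body 23 of 43 (53.5%) had a summit against 25.5% of all genes, and at the 3′ end 36 of 43 (83.7%) against 32.7%. In all, 41 members had a pooled summit in at least 1 of the 3 places, against 46.2% of all genes, and ndc-80 and zyg-1 were the exceptions. None of the members lies on the X chromosome, so the same shares were taken over the 17242 autosomal genes, and they came to 30.8% at the 5′ end, 26.2% in the body and 34.4% at the 3′ end.

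Optimal peaks were few. Of the 43 members 3 had one at the 5′ end (1.51% of all genes did), 1 in the body (0.956%) and 3 at the 3′ end (2.34%). Together 7 members (16.3%) had an optimal peak in some place, against 4.48% of all genes. Over autosomal genes the shares were 1.61% at the 5′ end, 0.847% in the body and 2.52% at the 3′ end. These counts are too small to read an order from the 3 places.

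The 7 genes were spd-2, cls-2 and emb-30 at the 5′ end, mdf-2 in the body, and zyg-9, klp-18 and klp-19 at the 3′ end. Their pooled signal values ran from 41.4 to 62.3 within an optimal list that spanned 37.7 to 4717 with a median of 50.4. Only mdf-2, zyg-9 and klp-19 lay above that median. The optimal list holds the 887 strongest pooled regions exactly, and its weakest peak had a signal of 37.68 while the next region outside it had 37.66. The member nearest below this limit was mdf-1, whose 5′ region ranked 968 with a signal of 36.5.

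**Figure D1:**
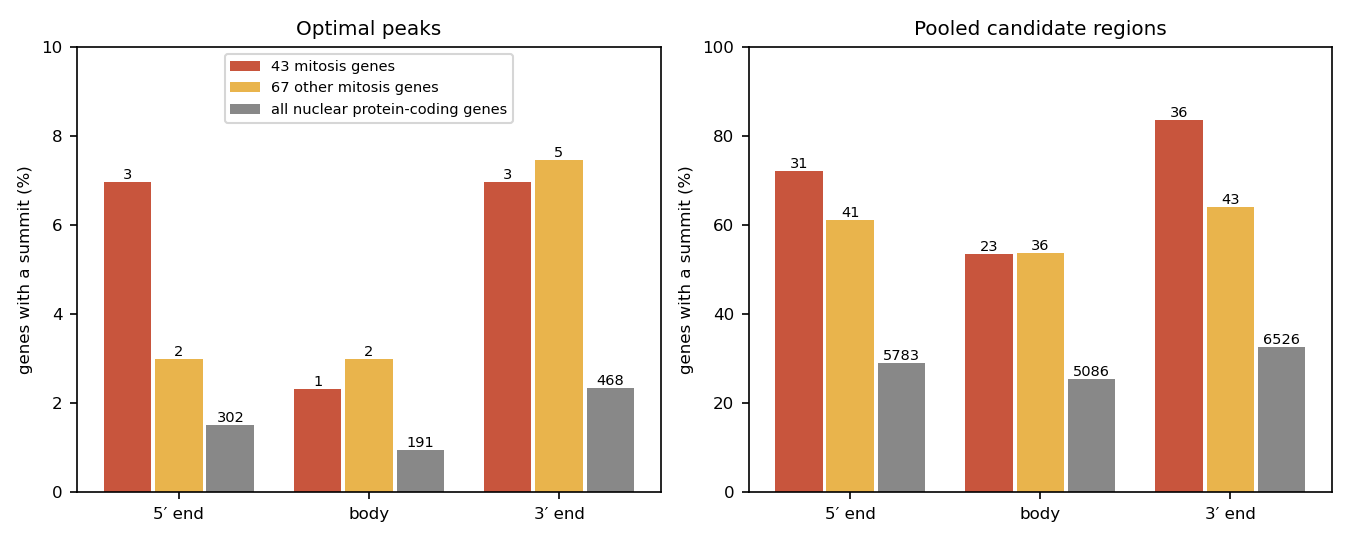
Share of genes (%) with an AMA-1 summit at the 5′ end, in the body and at the 3′ end, for the 43 mitosis genes, 67 other mitosis genes and all 19973 nuclear protein-coding genes; the number on each bar is the count of genes. In the pooled list the mitosis genes reach 72.1% at the 5′ end and 83.7% at the 3′ end, against 29.0% and 32.7% of all genes, while optimal peaks are at 3 members or fewer in each place.

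Each replicate alone also had members at higher shares than all genes. In replicate 1, 23 members had a summit at the 5′ end (27.6% of all genes), 25 in the body (26.8%) and 28 at the 3′ end (31.0%). In replicate 2 the counts were 30 at the 5′ end (31.2%), 26 in the body (28.2%) and 35 at the 3′ end (34.1%). Members with a summit in both replicates numbered 18 at the 5′ end (15.9%), 20 in the body (17.9%) and 23 at the 3′ end (19.4%).

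Among the strongest 3000 pooled regions the shares were lower both for members and for all genes. At this rank 6 members (14.0%) had a summit at the 5′ end, against 5.17% of all genes. In the body 5 (11.6%) had one, against 3.42%, and at the 3′ end 8 (18.6%), against 7.09%. Where a member had a summit, its best pooled rank had a median of 11444 at the 5′ end, and the corresponding median over all genes with a summit there was 10493. In the body the medians were 11005 and 11134, and at the 3′ end 9530 and 8999. Taking the best rank of a gene in any of the 3 places, the median was 4587 over members and 6670 over all genes with a region, and in replicate 2 it was 4674 and 7637. Members also had regions at a higher share in each place, and the part of this in the better median was not tested. All these medians describe only the genes that had a region.

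Members are longer than the average gene, with a median of 3283 bp against 2027 bp, and 40 of them are long enough to have a body beyond the end windows. Length bears directly on the chance of a summit in the body, so summits were also counted per length. Over all member loci, the gene and 500 bp on each side, there were 145 pooled summits or 0.743 per kb, against 0.363 per kb over the loci of all genes. The part of expression, gene density and neighbouring genes in this difference was not tested.

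**Figure D2:**
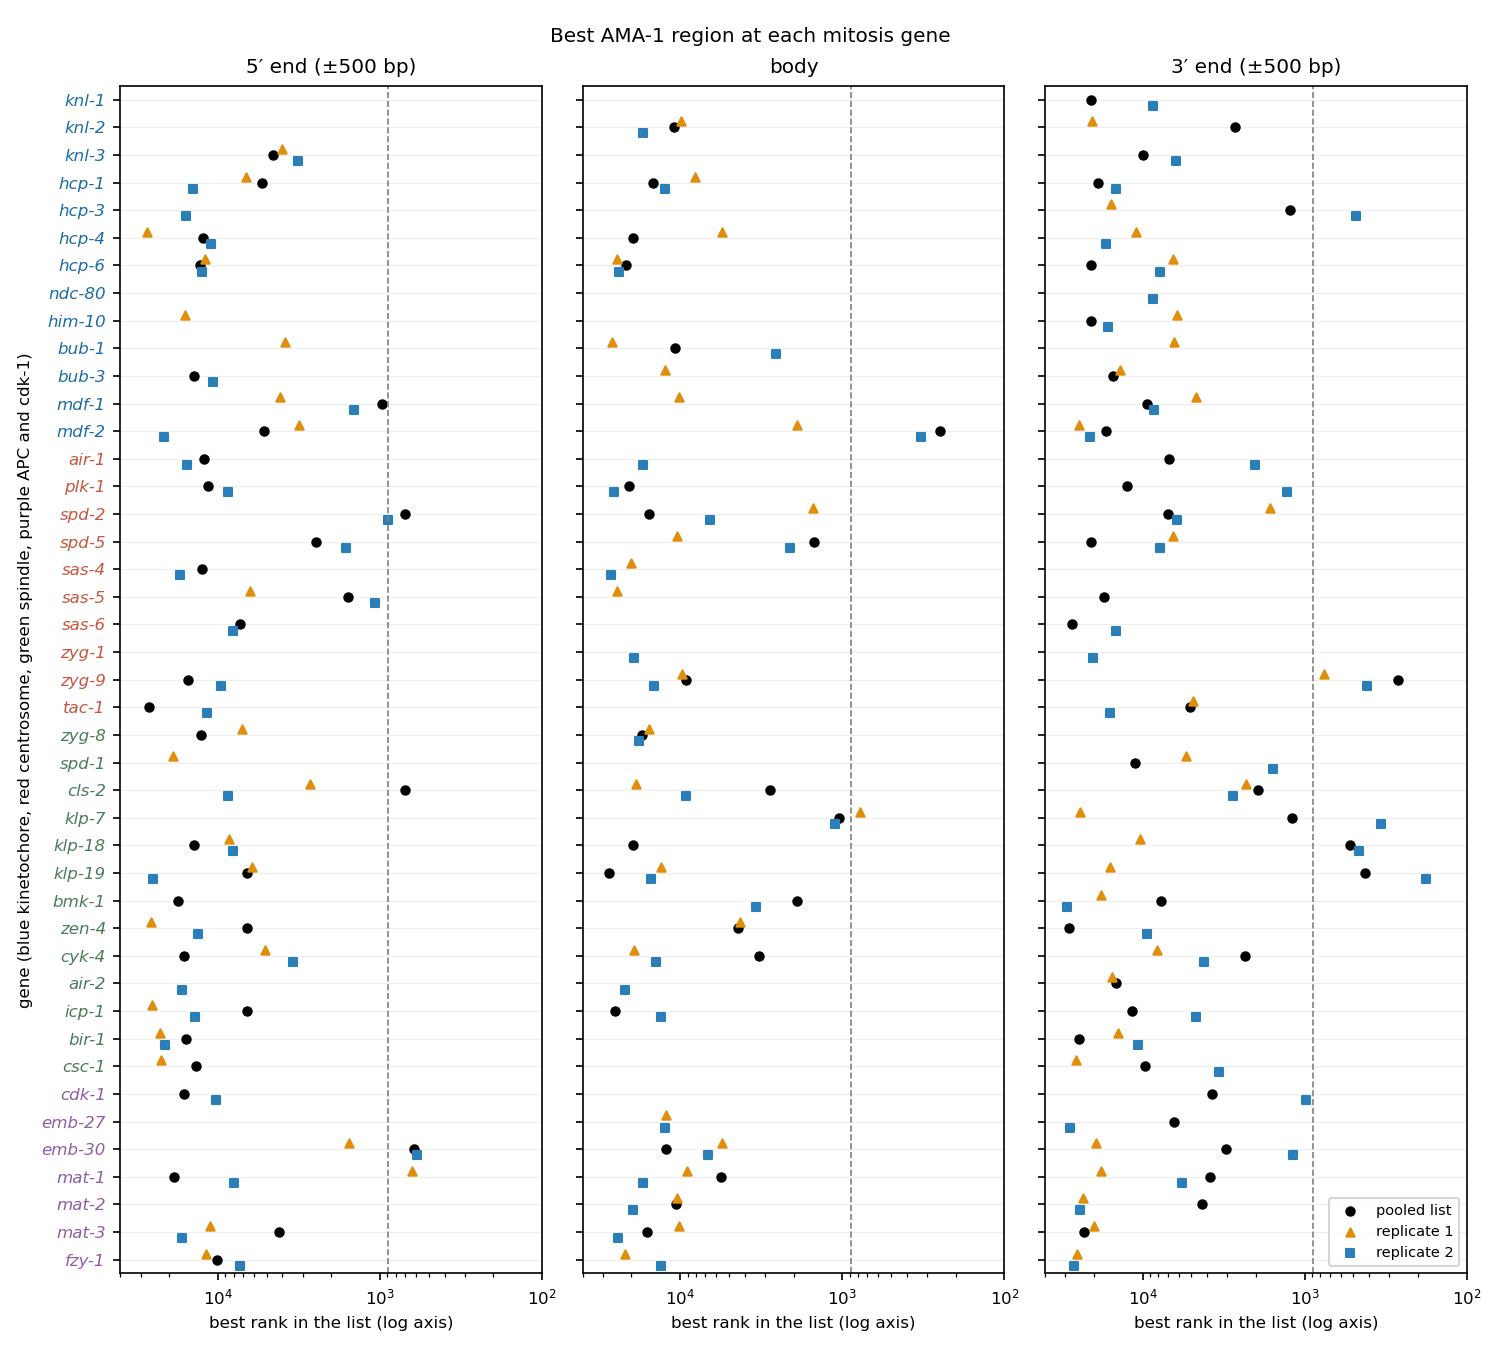
Best rank of an AMA-1 region (log axis, strongest to the right) for each of the 43 genes at the 5′ end, in the body and at the 3′ end, in the pooled list (circles), replicate 1 (triangles) and replicate 2 (squares); the dashed line is rank 887, the size of the optimal list. Most symbols lie far to the left of the line, and the pooled circles to its right belong to spd-2, cls-2, emb-30, mdf-2, zyg-9, klp-18 and klp-19.

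Among the genes of the kinetochore proper, the strongest signal lay at the 3′ end of hcp-3, which encodes the centromeric histone CENP-A. That summit ranked 1223 in the pooled list with a signal of 33.3, 30 bp past the annotated end of the gene (chrIII:9615306-9616470, minus strand). Replicate 2 had the region at rank 482 and replicate 1 had no overlapping region, so the value rests on 1 replicate. The summit also lay in a coding exon of the overlapping gene F58A4.6, and the polymerase there cannot be assigned to either gene.

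For knl-2, which is required to load CENP-A, the best region ranked 2677 near the 3′ end, at −311 bp within the last part of its coding sequence and close to the 3′ end of acdh-3. Replicate 1 had that region at rank 20468, and replicate 2 had none there. The pooled list thus ranked this site well ahead of replicate 1, the only replicate that held it. For knl-3, a subunit of the Mis12 complex, the replicates were close: its 5′ region ranked 4587 in the pooled list, 4039 in replicate 1 and 3221 in replicate 2, but the summit lay at −458 bp in the UTR of T10B5.3.

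The remaining kinetochore and condensin genes had weaker regions. The 5′ region of hcp-1, a CENP-F-like gene, ranked 5359 in the pooled list, 6710 in replicate 1 and 14331 in replicate 2. Those of hcp-4, the CENP-C gene, and hcp-6, a condensin subunit gene, ranked 12329 and 12843. The outer kinetochore scaffold gene knl-1 and the NUF2 gene him-10 had their best regions at ranks 20906 and 20694, both near the 3′ end. The remaining outer kinetochore gene, ndc-80, whose product binds microtubules, had no pooled or replicate 1 summit, and only replicate 2 listed a region near its 3′ end, at rank 8564.

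The checkpoint genes held the group's only optimal peak. At mdf-2, the MAD2 gene (chrIV:2636227-2641125, minus strand), the body summit ranked 251 with a signal of 62.3, and the region ranked 1897 in replicate 1 and 327 in replicate 2. This peak was only 70 bp wide, where the median of the optimal list was 280 bp, and it lay 1307 bp inside the gene on the tRNA-Glu gene Y69A2AR.t2 at chrIV:2639809-2639880, which RefSeq places on the same strand. It was the only best site of a member within 250 bp of a tRNA, snoRNA or snRNA gene. tRNA genes are transcribed by RNA polymerase III, and how much of this signal came from mdf-2 transcription was not tested. The 5′ end of mdf-2 was weaker, with ranks of 5177 in the pooled list, 3143 in replicate 1 and 21513 in replicate 2, and its summit lay between mdf-2 and the divergent gene nduv-3.

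At mdf-1, the MAD1 gene (chrV:9541782-9544226, minus strand), the signal was at the 5′ end. The summit lay at −102 bp and ranked 968, with ranks of 4173 in replicate 1 and 1450 in replicate 2. Both replicates thus held it in the stronger part of their lists, though the 3′ end of the histone gene his-35 lay within 500 bp of the summit. The kinase gene bub-1 had no pooled summit at either end and a body region at rank 10829, with 2575 in replicate 2 and none in replicate 1. Replicate 1 held bub-1 at its ends instead, at rank 3849 at the 5′ end and 6382 at the 3′ end. The checkpoint gene bub-3 had pooled ranks of 14093 at the 5′ end and 15196 at the 3′ end.

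Centrosome genes had pooled summits at the 5′ end in 9 of 10 cases, and in 9 of 10 in replicate 2, but in only 1 of 10 in replicate 1. The only centrosome gene with a 5′ summit in both replicates was sas-5, which encodes a centriole assembly factor (chrV:11610737-11612596). Its summit lay at −74 bp with ranks of 1569 in the pooled list, 6346 in replicate 1 and 1078 in replicate 2, and no other gene end lay within 500 bp. The other groups did not show so wide a gap at the 5′ end, with 8 and 8 of 13 kinetochore genes, 10 and 8 of 13 spindle genes and 4 and 5 of 7 APC genes in replicates 1 and 2.

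After spd-2, the strongest 5′ regions of this group were those of sas-5 and spd-5. At spd-2, a recruiter of pericentriolar material (chrI:8966985-8970081, minus strand), the optimal peak ranked 699 with a signal of 41.4 at −115 bp. Replicate 2 had it at rank 893 and replicate 1 had no overlapping region. The summit lay in the 210 bp between spd-2 and the divergent gene F32H2.10, so either gene could own it. At spd-5, the main scaffold gene of the material (chrI:5171275-5176654, minus strand), the 5′ region ranked 2476, with rank 1611 in replicate 2 and none in replicate 1. The summit of that region lay near the start of the divergent gene npp-6. A body region of spd-5 in an intron ranked 1491, with 10510 in replicate 1 and 2100 in replicate 2. The 3′ ends of spd-5 and hcp-6 overlap, and both genes were credited with the same 3′ region at rank 20849.

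The microtubule polymerase gene zyg-9 had the member region best supported by both replicates. Its optimal peak ranked 266 with a signal of 60.8, 758 in replicate 1 and 411 in replicate 2, and the summit lay 45 bp past the annotated end of the gene (chrII:8457818-8464512). The gene fars-3 starts 336 bp downstream on the same strand, so this summit lies both behind zyg-9 and ahead of fars-3. The 5′ end of zyg-9 ranked 15243 in the pooled list. The gene for its partner tac-1 likewise had its best region past the 3′ end, at rank 5065 in the UTR of smg-9, with ranks of 4875 in replicate 1 and 23387 in replicate 2.

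The centriole genes other than sas-5 and the centrosomal kinases were lower. The cartwheel gene sas-6 had a 5′ region at rank 7335 and sas-4 at rank 12627, while zyg-1, the kinase that starts centriole assembly, had no pooled summit at all. The Aurora A gene air-1 and the Polo kinase gene plk-1 had 5′ ranks of 12204 and 11444. Their 3′ ends ranked 6911 and 12489 in the pooled list and higher in replicate 2, at 2026 and 1286, with no region in replicate 1.

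Spindle genes had pooled summits at the 3′ end in 12 of 13 cases, and 5 of the 13 ranked within 3000 there, against 2 of 13 kinetochore genes, 1 of 10 centrosome genes and 0 of 7 APC genes. These 5 were klp-19, klp-18, klp-7, cls-2 and cyk-4. The replicates differed here: over spindle genes with a 3′ summit the median best rank was 14869 in replicate 1 and 3353 in replicate 2. These medians were 11019 and 8600 for kinetochore genes, 3256.5 and 6977 for centrosome genes, and 20070 and 15105 for APC genes. The groups are small, and their order at the 3′ end is a description of these lists.

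Of the kinesin genes, klp-19 and klp-18 had their strongest region at the 3′ end, and klp-7 and bmk-1 in the body. At klp-19, the chromokinesin gene (chrIII:13302717-13307259, minus strand), the optimal peak ranked 423 with a signal of 51.5 at −48 bp from the end, in the UTR and near the 3′ end of pgm-2. Replicate 2 had it at rank 178, the best replicate rank of any member, and replicate 1 had no overlapping region. At klp-18, whose product is needed for the acentrosomal meiotic spindle (chrIV:7040211-7043694), the optimal peak ranked 528 with a signal of 46.8. Its summit lay at −62 bp in the UTR and near the 3′ end of tin-9.1, with ranks of 10302 in replicate 1 and 464 in replicate 2. Both 3′ peaks were therefore far stronger in replicate 2 than in replicate 1.

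At klp-7, the microtubule depolymerase gene (chrIII:10805925-10811001), the replicates favoured adjoining places. Its body region, with the summit at −685 bp from the end, ranked 1043 in the pooled list, 781 in replicate 1 and 8730 in replicate 2. Its 3′ region, 6 bp past the end, ranked 1191, 24237 in replicate 1 and 340 in replicate 2. Replicate 2 also held a second body region, at rank 1115 with its summit at −2391 bp from the end. At bmk-1, the gene of a bipolar spindle kinesin, an intron region of the body ranked 1918, with 3416 in replicate 2 and none in replicate 1.

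The gene cls-2, which encodes a CLASP microtubule-stabilising protein (chrIII:9055048-9058895), was the only member with pooled regions within rank 3000 in all 3 places. Its 5′ optimal peak ranked 700 with a signal of 41.4 at −316 bp, in intergenic sequence with no other gene end within 500 bp, and ranked 2711 in replicate 1 and 8689 in replicate 2. The body region ranked 2780, with 19749 in replicate 2 and none in replicate 1. The 3′ region, 119 bp past the end and near the start of gst-1, ranked 1931, with 5938 in replicate 1 and 2767 in replicate 2.

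Midzone and passenger genes had fewer strong regions. At cyk-4, the RhoGAP gene of centralspindlin, the 3′ region ranked 2343, with 8143 in replicate 1 and 4191 in replicate 2, and lay near the start of rml-1. Its partner zen-4 had a body region at rank 4390, which replicate 1 held at 4307 and replicate 2 did not hold. The midzone bundling gene spd-1 had no pooled 5′ summit and a 3′ rank of 11103, with 1563 in replicate 2 and no overlapping region in replicate 1. The doublecortin-related kinase gene zyg-8 had a 5′ rank of 12773.

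The 4 chromosomal passenger genes had no region within rank 3000 in any place. Their best pooled ranks were 6630 at the 5′ end of icp-1, the INCENP gene, 9706 at the 3′ end of csc-1, the borealin-like gene, 14592 at the 3′ end of air-2, the Aurora B gene, and 15820 at the 5′ end of bir-1, the survivin gene. For air-2 the pooled list had no 5′ summit.

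Of the APC genes, only emb-30 had an optimal peak, and it was the 5′ peak that both replicates held most strongly among the 3 at members. Its summit, 40 bp inside the gene and in coding sequence (chrIII:9435507-9441460, minus strand), ranked 617 with a signal of 43.8, 1550 in replicate 1 and 594 in replicate 2. The 3′ ends of pir-2 and F54C8.1 lay within 500 bp, and pir-2 ends 97 bp upstream on the same strand. The 3′ region of emb-30 ranked 3058 in the UTR of the neighbouring gene cpar-1.

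The other APC subunit genes ranked lower. The 3′ region of mat-1 ranked 3834, with 18045 in replicate 1 and 5728 in replicate 2. The 5′ region of mat-3 ranked 4186, with 11187 and 16767, and the 3′ region of mat-2 ranked 4322, with 23257 and 24482. For mat-1, mat-2 and mat-3 the pooled list thus ranked each of these sites ahead of both replicates. At the 5′ end of mat-1 a region ranked 638 in replicate 1, while the best rank there was 7960 in replicate 2 and 18647 in the pooled list. For emb-27 the best region ranked 6371 at the 3′ end.

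The 2 APC regulators followed different ends. At cdk-1, the mitotic cyclin-dependent kinase gene (chrIII:9747472-9748852), the 3′ region 12 bp past the end ranked 3718, with 976 in replicate 2 and none in replicate 1. The gene T05G5.4 starts 82 bp beyond that end. The CDC20 gene fzy-1 had pooled summits at the 5′ end only, 2 in number, of which the better ranked 10075.

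Agreement between replicates was thus uneven over the members. Of the 90 best pooled sites, counting each gene and place once, 35 overlapped a region of both replicates, 13 one of replicate 1 only, 35 one of replicate 2 only and 7 neither. Of all nuclear pooled regions 31.2% were in both replicates, 53.1% in replicate 1 and 63.3% in replicate 2. At the 5′ end 14 of 31 member sites were in both replicates and 13 in replicate 2 only, and at the 3′ end 16 of 36 and 15. Among the strongest 887 regions of each replicate, 7 members (16.3%) appeared in replicate 2, where 4.28% of all genes did, and 3 (6.98%) in replicate 1, where 4.31% did. In both were zyg-9 and klp-7. For klp-7 the place differed, with the body in replicate 1 and the 3′ end in replicate 2.

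**Figure D3:**
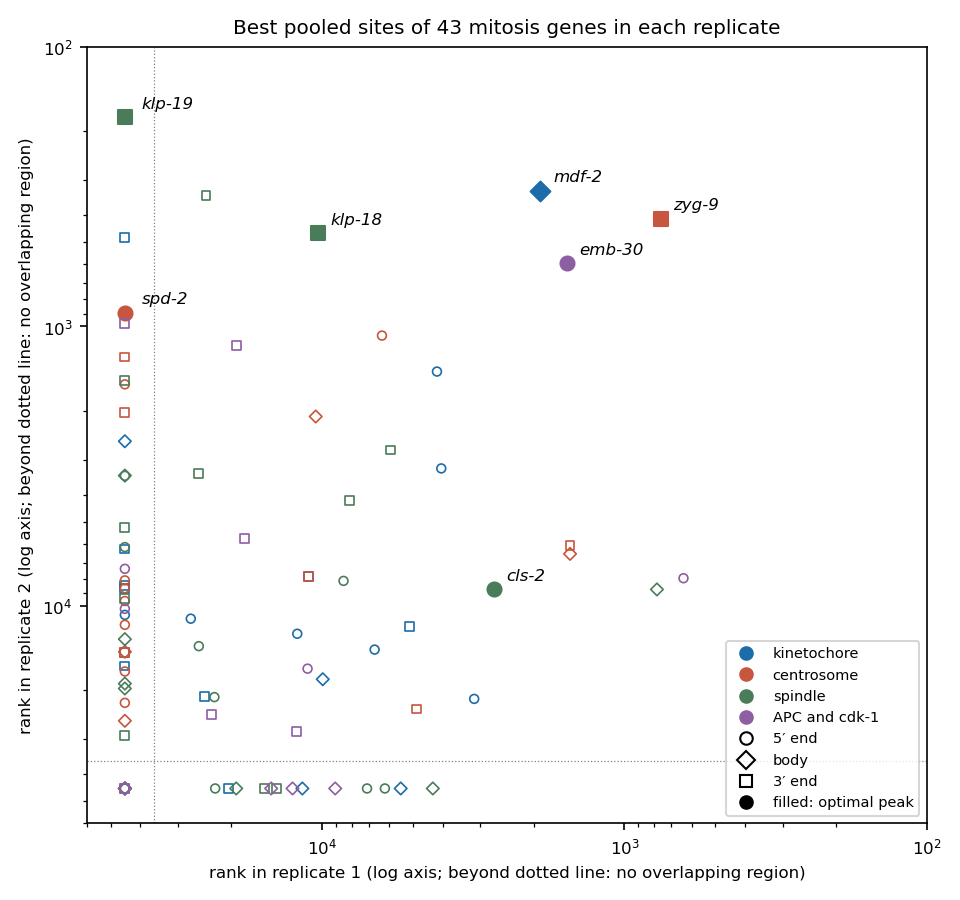
Rank in replicate 1 (x axis) against rank in replicate 2 (y axis) of the region overlapping each of the 90 best pooled sites, on log axes with the strongest ranks to the right and top; points beyond the dotted lines had no overlapping region, colours give the gene group, shapes the place, and filled points are the 7 optimal peaks. The points of zyg-9, emb-30 and mdf-2 lie nearest the upper right, while those of klp-19 and spd-2 have no region in replicate 1.

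Only summits within 500 bp of an annotated end were measured, and among these the best summits of members lay within 150 bp more often than those of all genes. At the 5′ end 18 of 31 best summits were upstream (58.1%, and 59.3% over all genes), with a median of −86 bp (−65 bp over all genes). Within 150 bp of the 5′ end lay 16 of the 31 (51.6%), against 37.0% over all genes. At the 3′ end 20 of 36 lay past the end, the median was 14.5 bp past it (67 bp over all genes), and 20 of 36 lay within 150 bp (55.6%, and 40.8% over all genes). Because of trans-splicing in the worm, an annotated 5′ end may lie some way downstream of the promoter.

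Counting every pooled summit by distance, the densest 200 bp bin was the one just past the 3′ end. It held 19 summits, or 44.2 per 100 members against 12.2 per 100 genes overall. The bin just upstream of the 5′ end held 13, or 30.2 per 100 members against 9.93. Both peaks of the profile lay in the same bins as for all genes and were higher.

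**Figure D4:**
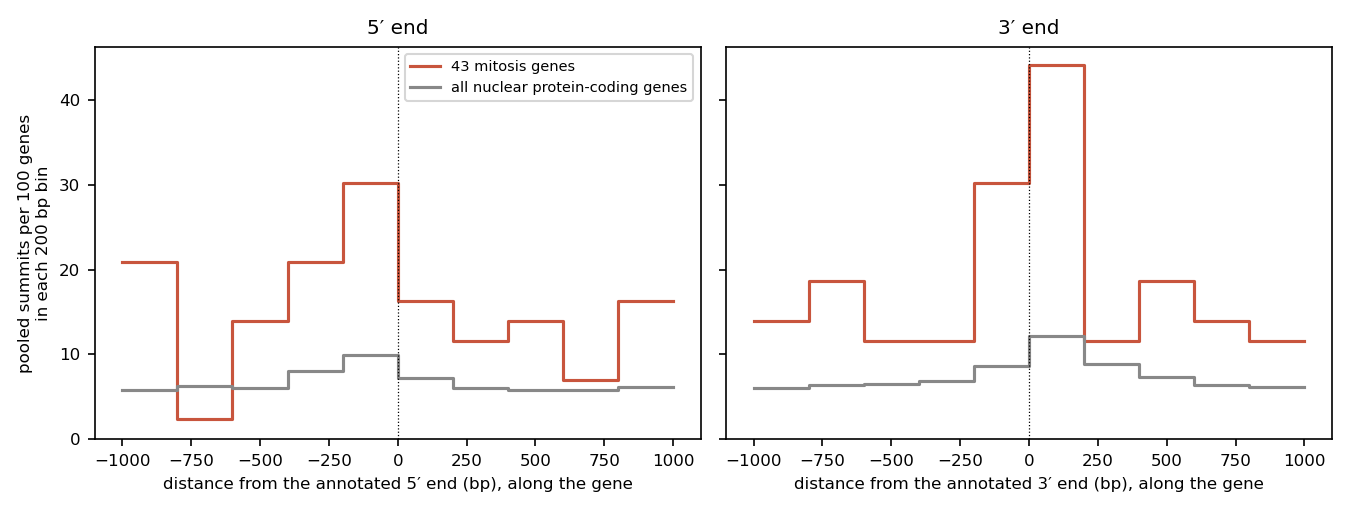
Pooled summits per 100 genes in 200 bp bins by distance (bp) from the annotated 5′ end (left) and 3′ end (right), with positive distances in the direction of transcription. The line of the 43 mitosis genes peaks at 30.2 just upstream of the 5′ end and at 44.2 just past the 3′ end, against 9.93 and 12.2 for all nuclear protein-coding genes.

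More members had a summit at the 3′ end than at the 5′ end, and the median best pooled rank was better there, 9530 against 11444. Within rank 3000 there were 8 members at the 3′ end and 6 at the 5′ end. Only among members with pooled summits at both ends was the 5′ end more often the stronger. Of the 27 members with pooled summits at both ends, 17 ranked higher at the 5′ end and 10 at the 3′ end (37.0%, and 51.1% over all genes). A further 4 had a summit at the 5′ end only, 9 at the 3′ end only and 3 at neither.

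Other gene ends lay near many of these summits, which limits how a summit can be assigned. For 23 of 43 members (53.5%) the nearest upstream gene that does not overlap starts within 1000 bp on the opposite strand, an arrangement found at 17.5% of all genes. Among them are spd-2, spd-5, sas-5, klp-18 and cdk-1. Of the 31 best 5′ sites, 12 lay within 500 bp of another gene's 5′ end, 6 near another 3′ end and 13 near no other gene end. Of the 36 best 3′ sites, 13 lay near another 5′ end, 15 near another 3′ end and 9 near none. These site counts were not made over all genes, so they are not read as a trait of the members. A gene ending on the same strand within 500 bp upstream, as in operons, was found at 6 members (14.0%, and 18.1% of all genes).

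By annotation, the best 5′ summits fell in intergenic sequence in 13 cases, coding exons in 10, introns in 6 and UTRs in 2, of the gene itself or of a neighbour. The best 3′ summits fell in intergenic sequence in 14 cases, UTRs in 13, coding exons in 7 and introns in 2. Body summits lay in coding exons in 15 of 23 cases. Shares over all genes were not taken for these classes, so the counts are not read as a trait of the members.

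Promoters were searched for the core motif of E2F, a cell cycle transcription factor, as TTTCCCGC or TTTGGCGC on both strands from 250 bp before to 50 bp after the annotated start. It was present at 4 of 43 members (9.30%), against 497 of 19973 genes (2.49%). The 4 were him-10, icp-1, ndc-80 and tac-1, of which icp-1 and tac-1 had a pooled 5′ summit, at ranks 6630 and 26701. A match is a description of the letters and not of binding.

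The 67 other genes of mitosis and cytokinesis, taken from further subunits and regulators, were placed in the same way. In the pooled list 41 of them (61.2%) had a summit at the 5′ end, 36 (53.7%) in the body and 43 (64.2%) at the 3′ end. Optimal peaks were at 9 of 67 (13.4%) in some place, with 2 at the 5′ end, 2 in the body and 5 at the 3′ end. These shares too lay above those of all genes.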

How the data were processed

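Per the names the submitters gave them, the deposited lists hold peaks with background regions for each replicate and for the pooled reads, made to enter an irreproducible discovery rate (IDR) step, and the optimal peaks that passed it. Not given in the sources used here are the aligner, peak caller, IDR threshold and use of the control experiment, which was not analysed here. The deposited column 7 is the authors' own score for each region, called signal value here, whose scale is not stated. It was used only to rank regions within a list, with ties sharing the lower rank. The deposited column 9 holds −log10 q-values. All 887 optimal peaks had its maximum, so it could not order them. Depth is unknown because no read counts were given, and no interval is printed. With 1 group and genes that are not replicates, no test was run and shares are descriptions.

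The ce11 lists (WBcel235) were used with Ensembl release 115 genes, and the ce10 lists were not used. A replicate rank of a site is that of the region sharing at least 1 bp with the pooled region, except where the best rank in a place is stated. Members and lists were chosen with earlier results of these data known. Values are given for members with an optimal peak or a pooled rank within 3000, the 2 best ranked of each group, and in short for the rest. The alternatives were other windows, the stronger part of each list, overlap in place of summits, summits away from small RNA genes, other assignments and single replicates. Placement was checked on simulated summits. Python 3.11.15, numpy 2.4.6, pandas 2.3.3 and matplotlib 3.10.9 were used.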

Additional observations from a re-analysis of the deposited data

How the results depend on the processing

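Of 74 recomputed counts, 64 stayed within 1.5 times the reported one. Optimal 5′ peaks of members fell from 3 to 0 with the strongest 443 optimal peaks, and were 1 with the 887 strongest regions of either replicate alone. By that rule optimal 3′ peaks ranged from 1 without replicate 2 to 5 without replicate 1. The optimal body peak of mdf-2 was lost, leaving 0, when summits near small RNA genes were left out. Pooled body summits fell from 23 to 14 with end windows of 1000 bp, which shorten the body, and to 14 with the strongest 15000 pooled regions. With those regions APC genes with a 5′ summit went from 5 to 3. Centrosome genes with a 5′ summit were 9 without replicate 1 and 1 without replicate 2, so that count of 9 rests on replicate 2. The cause was not tested. No paired analysis was possible because there is 1 group of 2 replicates and no comparison between groups. The depth behind each list is unknown, and a gene without a region is only not listed.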

Other observations

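Among the 67 other genes of mitosis and cytokinesis, 9 had an optimal peak. The best ranked was at mix-1, a condensin gene, at rank 282 in its body, with 4937 in replicate 1 and 239 in replicate 2, and within 250 bp of a snoRNA gene. The next was past the 3′ end of zwl-1, a gene of the kinetochore dynein recruiting complex, at rank 289, with 166 in replicate 1 and 720 in replicate 2, and also within 250 bp of a snoRNA gene. The peaks at rod-1 and rsa-1 ranked 583 and 541 at the 3′ end. That of rod-1 lay 453 bp past the gene, with both ends of the histone gene his-61 within 500 bp. That of rsa-1 lay near the 3′ end of dao-5. The dynactin gene dnc-1 had a 5′ peak at rank 696, with 1159 in replicate 1 and 513 in replicate 2, beside the divergent start of lsm-7. The kinase gene wee-1.3 had a 5′ peak at rank 864, with 25607 in replicate 1 and 841 in replicate 2.

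The 61 bp runs at the summits of zyg-9 and emb-30 share a stretch of 17 bases, TCTCAATAANAGGCGGA, in which 16 positions are alike. It was the longest stretch, with 1 mismatch allowed, over the 10 pairs of the 5 runs shown, on either strand, and was searched for after the runs had been seen. It has 2 matches in the genome, at chrII:8464542-8464558 on the plus strand and chrIII:9441413-9441429 on the minus strand, and these are the 2 summits, 7 bp and 1 bp from the middle of the match. The stretch was taken from these 2 runs, so both matches were fixed in advance, and no test was made of it.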
